A study of Mus musculus with 14 samples.

Results

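Orphan and adhesion G protein coupled receptors were followed across 6 groups of early B lineage cells from mouse bone marrow. The genes were those whose single annotated symbol was Gpr with a number and at most 1 letter, or began with Adgr, the prefix of the adhesion class. Of 18193 genes measured, 81 met this rule, 22 of them adhesion receptors and 59 Gpr numbered genes, and each was read by its brightest probe set, judged by the mean of the 14 arrays. Described here in full are the 21 receptor genes that were on, meaning that at least 1 group mean exceeded 5 on the log2 scale of the deposited signals. These were 7 adhesion receptors (Adgrg3, Adgrg1, Adgrl4, Adgrl2, Adgrl1, Adgra3 and Adgre5) and 14 Gpr numbered receptors. A share of 25.9% of the receptor genes was on, against 47.9% of all genes, and 42 of the 81 lay within 0.5 of the lowest value in the table on every array.

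The 3 Pax5KO engrafted and 3 WT engrafted arrays held cells that descended from fetal liver of day 15 embryos, Pax5 deficient or wild type, all bearing a reporter of λ5, a surrogate light chain protein of early B cells. The donor cells had been given to sublethally irradiated mice, which can keep some marrow of their own, and marrow cells positive for B220 and λ5 were sorted 4 weeks later. The other groups came from marrow of wild type mice without a transplant, with 2 arrays for each stage: Ly6D- CLP (common lymphoid progenitors), Ly6D+ CLP, ProB cells and PreB cells. The labels give the strain as C57Bl6 (spelled B57Bl6 in some titles) and an age of 8 to 12 weeks for all 14 samples, the arrays of a group are called biological replicates in the labels, and no sort gates beyond those names are given.

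G protein coupled receptors cross the membrane with 7 helices and pass signals to heterotrimeric G proteins, whose alpha subunits are released to act on effectors such as adenylyl cyclases and phospholipase C. Orphan receptors are those whose natural ligand is unknown or disputed. Adhesion receptors carry long extracellular parts that bind matrix or other cells and are cut next to the membrane, leaving a tethered stretch that can activate the receptor. In B cell development such receptors are best known for placing cells: Gpr183 guides mature B cells along oxysterol gradients, and Adgre5 binds CD55 on neighbouring cells.

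Ly6d read 10.3 and 11.2 in Ly6D+ CLP, against 3.02 and 3.61 in Ly6D- CLP, and Igll1, which encodes λ5, read 11.4 to 13.1 in the engrafted cells. The mean level of 7 B lineage markers lay between 10.6 and 11.6 on the arrays of 5 groups and between 5.91 and 5.95 in Ly6D- CLP; Cd34, a progenitor marker, exceeded 9 in both CLP groups alone. Pax5 itself read 7.57 to 7.95 in Pax5KO and 6.18 to 6.76 in WT engrafted cells; the deleted part of the gene is not stated, so this probe set tests no genotype. Xist, expressed from the inactive X of female cells, was high on all Pax5KO arrays, on WT engrafted array 3 and on both ProB arrays (10.7 to 13.2), and at most 2.73 on the other 8. The mean of 15 granulocyte and monocyte markers was 6.93 to 7.18 in PreB, against 2.86 to 2.88 in ProB; it was 3.81 to 4.24 in Pax5KO and 3.48 to 5.01 in WT engrafted cells. Since these are bulk samples, fewer cells that carry a transcript and less of it per cell cannot be told apart.

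The receptors that were on differed widely between groups. The range between the highest and the lowest group mean had a median of 3.40 over the 21 receptors, against 1.91 over all 8713 genes that were on. It exceeded 4 for 8 receptors (38.1%), against 8.76% of all genes that were on: Gpr155 with 9.02, Adgrg3 with 8.41, Adgrl4 with 7.80, Adgre5 with 6.71, Gpr25 with 5.65, Gpr18 with 5.22, Gpr160 with 4.72 and Gpr171 with 4.08. Gpr19, an orphan receptor best known from the brain, had the narrowest range with 1.07. The highest mean lay in Ly6D- CLP for 8 receptors, in Ly6D+ CLP for 4, in PreB for 4, in WT engrafted cells for 3, in Pax5KO cells for 2 and in ProB for none. Because the threshold of 5 chose the receptors, these counts describe them and test nothing; Gpr12 (highest mean 5.25), Adgra3 (5.29) and Adgrl1 (5.48) lay just inside it, and Gpr108 (4.76), Adgrd1 (4.69) and Gpr137 (4.21) just outside.

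**Figure D1:**
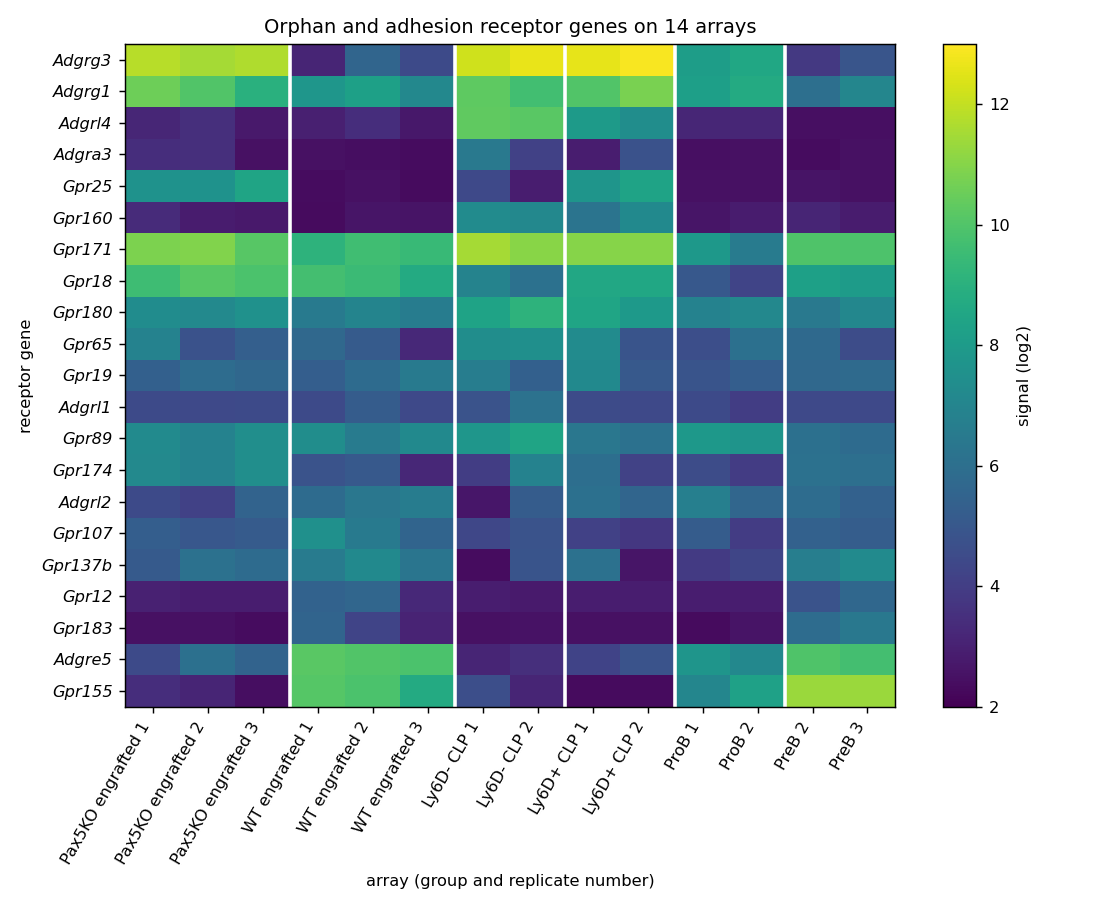
Log2 signal of the 21 receptor genes (rows) on the 14 arrays (columns, by group and replicate number), with colour for the level. Adgrg3 was bright on the Pax5KO and CLP arrays, Gpr155 and Adgre5 on the WT engrafted, ProB and PreB arrays, and Adgrl4 and Gpr160 on the 4 CLP arrays.

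Among the adhesion receptors, Adgrg3 (also Gpr97, known from granulocytes and other leukocytes) had the widest range. It read 11.80, 11.50 and 11.67 in Pax5KO cells, against 3.12, 5.58 and 4.49 in WT engrafted cells. In cells without a transplant the Ly6D- CLP arrays read 12.20 and 12.63, the Ly6D+ CLP arrays 12.61 and 12.91, the ProB arrays 8.12 and 8.56, and the PreB arrays 3.81 and 4.90. The Pax5KO arrays thus lay below the 4 CLP arrays and above both ProB arrays, and the WT engrafted arrays overlapped PreB. The mean of the granulocyte and monocyte markers was 6.93 to 7.18 in PreB and 4.60 to 6.93 in Ly6D- CLP, and its part in the levels of this receptor was not tested.

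Adgrg1 (also Gpr56, a receptor of stem cells, cytotoxic lymphocytes and the developing brain) followed a shallower course. It read 10.58, 10.00 and 8.97 in Pax5KO cells, against 7.77, 8.24 and 7.12 in WT engrafted cells. Among untransplanted cells, the Ly6D- CLP arrays read 10.25 and 9.69, the Ly6D+ CLP arrays 10.02 and 10.81, the ProB arrays 8.20 and 8.71, and the PreB arrays 6.01 and 7.07. The engrafted groups did not overlap, and the lowest Pax5KO array lay close to the higher ProB array. Adgrg1 and Adgrg3 are neighbours on chromosome 8 with no protein-coding gene between them in the RefSeq table of assembly GRCm38.p6. The second probe set of Adgrg1 gave group means of 9.91 in Pax5KO and 7.83 in WT engrafted cells, near the 9.85 and 7.71 of the one used.

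Adgrl4 (also Eltd1), otherwise known from endothelium, was a transcript of the progenitors. Its signal was 10.31 and 10.20 for Ly6D- CLP, then 7.99 and 7.39 for Ly6D+ CLP. In ProB it read 3.20 and 3.17, and on both PreB arrays 2.45. The Pax5KO arrays (3.19, 3.50 and 2.76) overlapped those of WT engrafted cells (2.96, 3.42 and 2.71), so Adgrl4 was low in engrafted cells of either genotype. The group means of the second probe set were 8.46 (Ly6D- CLP), 7.71 (Ly6D+ CLP) and 2.73 (ProB).

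Adgre5 (CD97), an adhesion receptor of blood cells, ran the other way. It read 4.49, 6.06 and 5.51 in Pax5KO cells, against 10.19, 10.00 and 9.88 in WT engrafted cells. In cells without a transplant Ly6D- CLP had 3.14 and 3.48, Ly6D+ CLP had 4.20 and 4.80, ProB had 7.72 and 7.15, and PreB had 9.99 and 9.70. Each of the 4 stages lay apart from the next, the WT engrafted arrays overlapped PreB, and the Pax5KO arrays lay below ProB. Adgre5 and Adgrl1, a latrophilin, are neighbours on chromosome 8. Adgrl1 read between 4.00 and 6.13 over the 14 arrays. It repeated the value 4.44 on both PreB arrays and on arrays of other groups, so levels near it may be background. Adgrl2, another latrophilin, which bind teneurins on facing cells, read 2.66 to 6.73, and Adgra3 (also Gpr125) read 2.34 to 6.43 with its highest array in Ly6D- CLP. None of these 3 passed the test in any comparison.

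Among the orphan receptors, Gpr25, a receptor described on T cells, was present in 2 of the groups. It read 7.63, 7.60 and 8.41 in Pax5KO cells, against 2.37, 2.50 and 2.32 in WT engrafted cells, which is the floor of the table. Ly6D- CLP read 4.44 and 2.86, Ly6D+ CLP 7.73 and 8.37, both ProB arrays 2.50, and PreB 2.60 and 2.50. The Pax5KO and Ly6D+ CLP arrays overlapped, and every other array lay below 5. Gpr160 was another progenitor transcript: Ly6D- CLP had 7.31 and 7.14, and Ly6D+ CLP 6.24 and 7.20, against 2.62 and 2.85 for ProB and 3.12 and 2.85 for PreB. Its engrafted arrays were low in either genotype (2.76 to 3.37 in Pax5KO, 2.32 to 2.62 in WT engrafted cells). The value 2.62 recurred in WT engrafted and ProB cells, and 2.85 in Pax5KO, ProB and PreB cells. Levels near them may be background, so the differences of Gpr160 from these groups may be larger than those given below.

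Gpr155, a protein of the lysosomal membrane described as a cholesterol sensor in human cells, had the widest range of all 21. It read 3.45, 3.12 and 2.40 in Pax5KO cells, against 10.12, 9.90 and 8.71 in WT engrafted cells. Ly6D- CLP read 4.65 and 3.12, both Ly6D+ CLP arrays lay at the lowest value (2.32), ProB read 7.07 and 8.28, and PreB 11.36 and 11.33. The Pax5KO arrays overlapped those of Ly6D- CLP and lay below ProB, whereas the WT engrafted arrays lay between ProB and PreB. The same value, 3.12, stood on a Pax5KO and a Ly6D- CLP array. Levels near it may be background, so the differences of Gpr155 in Pax5KO cells may be larger than those given below.

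Gpr18 and Gpr171, lymphoid orphan receptors for which ligands have been proposed, dipped in ProB. Gpr18 read 9.57, 10.12 and 9.91 in Pax5KO cells, against 9.70, 9.51 and 8.70 in WT engrafted cells. The stages gave 6.92 and 6.12 for Ly6D- CLP, 8.59 and 8.54 for Ly6D+ CLP, 5.03 and 4.26 for ProB, and 8.25 and 8.05 for PreB. The engrafted groups overlapped and both lay above ProB. Gpr171 read 10.82, 10.93 and 10.15 in Pax5KO cells, against 9.10, 9.63 and 9.43 in WT engrafted cells, without overlap. Here Ly6D- CLP had 11.53 and 11.05, Ly6D+ CLP 10.99 and 11.00, ProB 7.86 and 6.57, and PreB 9.97 and 9.94. ProB was therefore the lowest group for both genes. Such a dip was not particular to receptors. Rag1 averaged 12.57 in Ly6D+ CLP, 8.99 in ProB and 12.04 in PreB, and Ly6d 10.78, 5.79 and 8.78. Vpreb1 did not dip (12.59, 13.29 and 10.20).

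Gpr89, which takes part in Golgi acidification and is not a typical receptor, alternated between stages. Ly6D- CLP had 7.79 and 8.44, Ly6D+ CLP 6.36 and 6.12, ProB 7.86 and 7.68, and PreB 6.06 and 5.83. Pax5KO cells (7.25, 6.87 and 7.43) overlapped WT engrafted cells (7.41, 6.57 and 7.20). Gpr183 (EBI2) read 2.51, 2.51 and 2.39 in Pax5KO cells, against 5.53, 4.25 and 3.10 in WT engrafted cells. It lay between 2.34 and 2.59 in both CLP groups and ProB, and read 5.88 and 6.42 in PreB. Its neighbour Gpr18 on chromosome 14, with which it lies inside the span of Ubac2, showed levels above 4 in all 6 groups.

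The other 7 Gpr numbered receptors were called in none of the 5 comparisons by the probe set used. In a limma fit on all probe sets, another Gpr107 probe set was higher in PreB than in ProB (1.73, SE 0.43, limma adjusted p = 0.0424). Another Gpr174 probe set was higher in Pax5KO than in ProB cells (at least 2.76, ProB being at the floor, SE 0.55, limma adjusted p = 0.0345). Further calls by other probe sets of Gpr174 and Gpr12 are given below. Gpr174, a receptor for lysophosphatidylserine, read 6.87 to 7.44 in Pax5KO cells and 3.23 to 5.08 in WT engrafted cells. Gpr12, a Gs coupled relative of Gpr3, read 2.88 to 3.02 in Pax5KO cells, 3.27 to 5.63 in WT engrafted cells, and 4.80 and 5.69 in PreB. Gpr107, linked to membrane traffic, read 4.97 to 5.28 in Pax5KO cells and 5.56 to 7.53 in WT engrafted cells, also without overlap. Gpr180 read 6.46 to 9.10 over all arrays with both CLP groups highest, Gpr65, a proton sensor of leukocytes, 3.26 to 7.50, Gpr137b, a lysosomal protein, 2.35 to 7.28, and Gpr19 4.86 to 7.24. For 5 of these 7 (Gpr137b, Gpr174, Gpr65, Gpr12 and Gpr19) replicates of at least 1 group differed by over 2, which limits what their means can show; the same held for Gpr183, Adgrl2, Adgra3 and, in WT engrafted cells, Adgrg3. Probe sets annotated to Gpr137b together with Gpr137b-ps were left out, and the one used may read both. The brightest of those left out averaged 6.11 in Ly6D- CLP, 6.13 in Ly6D+ CLP, 3.59 in ProB and 9.71 in PreB. Its differences were not tested.

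**Figure D2:**
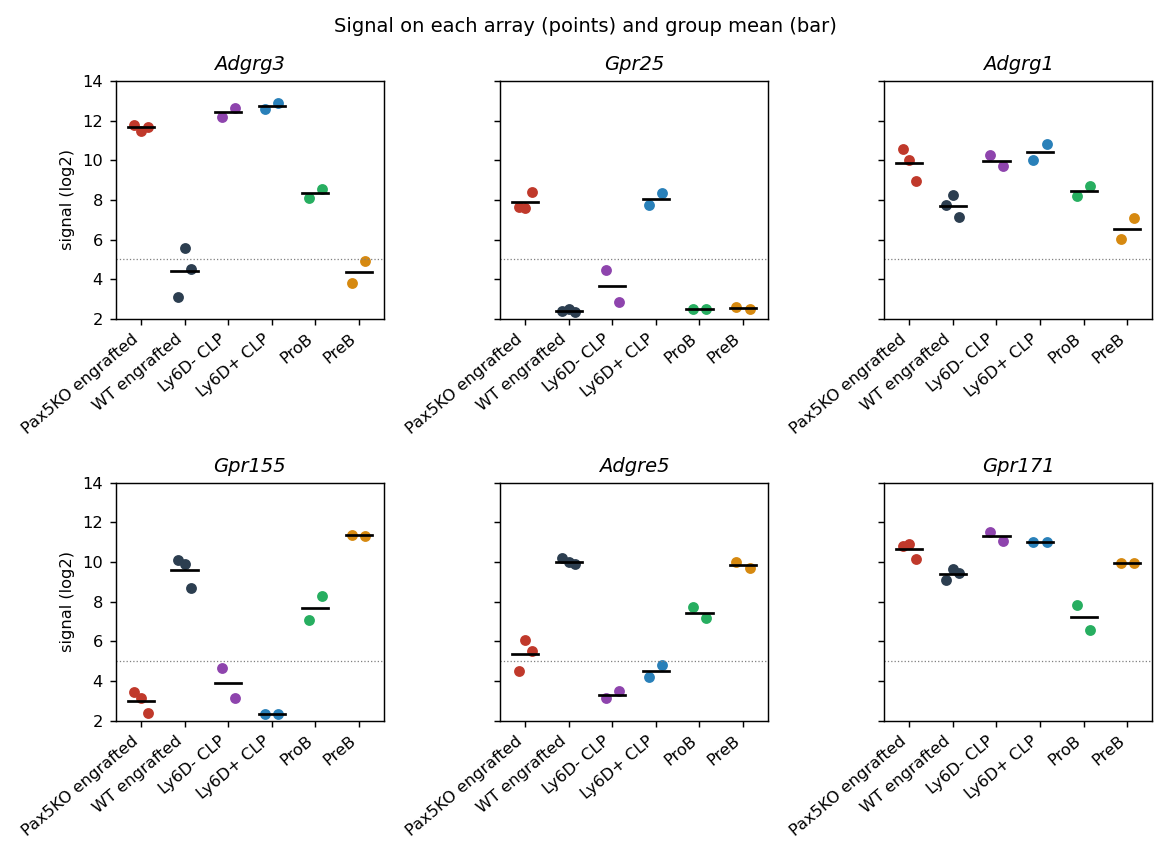
Log2 signal of 6 receptor genes in each group; points are arrays, bars group means, and the dotted line marks 5. Adgrg3 and Gpr25 separate Pax5KO from WT engrafted cells upward, Gpr155 and Adgre5 downward, and Gpr171 is lowest in ProB.

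The promoters of Adgrg3, Gpr25 and Gpr155 are shown because these were the 3 receptors with the largest differences between Pax5KO and WT engrafted cells. The sequences are RefSeq's (assembly GRCm38.p6), and each window runs from 250 bases before to 50 after the start, 5′ to 3′ on the strand of the gene: chr8:95017442-95017741 on the plus strand for Adgrg3, chr1:136260877-136261176 on the minus strand for Gpr25 and chr2:73386431-73386730 on the minus strand for Gpr155. Capitals mark matches, on either strand, to the motifs searched: the E box CANNTG, the EBF core CCCNNGGG, the RUNX core TGTGGT and the PU.1 core GAGGAA.
Adgrg3: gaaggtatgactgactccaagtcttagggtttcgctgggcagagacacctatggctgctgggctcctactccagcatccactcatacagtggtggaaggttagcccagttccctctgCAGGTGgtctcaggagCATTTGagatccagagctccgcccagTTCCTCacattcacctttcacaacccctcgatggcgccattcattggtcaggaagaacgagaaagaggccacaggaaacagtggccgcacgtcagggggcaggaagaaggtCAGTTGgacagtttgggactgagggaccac
Gpr25: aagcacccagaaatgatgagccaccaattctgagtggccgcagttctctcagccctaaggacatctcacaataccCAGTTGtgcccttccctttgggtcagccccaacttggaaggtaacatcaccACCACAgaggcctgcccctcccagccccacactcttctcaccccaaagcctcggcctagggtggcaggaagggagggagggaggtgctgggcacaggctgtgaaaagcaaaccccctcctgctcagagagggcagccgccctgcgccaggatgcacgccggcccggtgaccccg
Gpr155: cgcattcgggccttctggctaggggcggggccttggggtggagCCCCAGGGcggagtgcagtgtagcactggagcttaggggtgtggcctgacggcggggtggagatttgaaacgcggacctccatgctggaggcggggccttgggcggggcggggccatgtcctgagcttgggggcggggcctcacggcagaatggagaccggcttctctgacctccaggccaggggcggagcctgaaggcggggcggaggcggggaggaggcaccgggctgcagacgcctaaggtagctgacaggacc
The Adgrg3 window held 3 E boxes and 1 PU.1 core, the Gpr25 window 1 E box and 1 RUNX core, and the Gpr155 window 1 EBF core and no E box. Of the 32851 mouse windows of this length, 72.3% held an E box, 13.7% an EBF core, 16.8% a RUNX core and 28.3% a PU.1 core. Among the 23 windows of the 18 receptor genes that matched, 18 held an E box, 5 an EBF core, 6 a RUNX core and 7 a PU.1 core. These matches describe the letters only.

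Pax5KO cells were set against WT engrafted cells to ask how B220+ λ5+ cells differ when the donor lacked Pax5, the factor that commits progenitors to the B lineage. Adgrg3, Gpr25 and Adgrg1 rose and Gpr155 and Adgre5 fell in Pax5KO cells. These 5 were 6.17% of the 81 receptor genes, against 5.94% of all genes called (limma, adjusted p under 0.05 over all genes; 3.64% higher and 2.29% lower), so the share called was near the background. Among genes that were on, 23.8% of receptors and 11.4% of all genes were called. The threshold for being on used the same arrays, so such shares give no support, here or in the comparisons below. Without Pax5KO array 1 the calls were 4 receptors (4.94%) and 676 genes (3.72%), and without WT engrafted array 1 they were 4 receptors and 718 genes. The median difference was 0.12 over the 21 receptors and 0.09 over all genes that were on.

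Adgrg3 averaged 11.66 ± 0.15 in Pax5KO and 4.40 ± 1.23 in WT engrafted cells (SD, n = 3 each); the difference was 7.26 log2 units (SE 0.55, limma adjusted p = 0.000122). A difference of 1 on this scale is a factor of 2 in signal. Gpr25 differed by at least 5.48 (SE 0.39, limma adjusted p = 7.75e-05), a lower bound since WT engrafted cells lay at the floor. Gpr155 averaged 2.99 ± 0.54 in Pax5KO and 9.58 ± 0.76 in WT engrafted cells, a difference of -6.59 (SE 0.53, limma adjusted p = 0.000169). Adgre5 averaged 5.35 ± 0.80 in Pax5KO and 10.02 ± 0.16 in WT engrafted cells, a difference of -4.67 (SE 0.37, limma adjusted p = 0.000152). All 4 genes kept their call when any single array of either group was left out, with the replicate number as a block and with a term for Xist. Markers of other stages and cells moved in the same comparison. Of 6 CLP markers 3 rose in Pax5KO cells, namely Flt3 by 5.90, Kit by 3.04 and Dntt by 2.89. Of 7 B lineage markers Cd79a and Cd79b fell (differences -3.10 and -1.26), and the median difference of the list was -0.03. Among 15 granulocyte and monocyte markers Lyz2 rose by 2.52, the other 14 were not called and the median difference was -0.12, all by limma. Uncalled markers went both ways: Ctsg read 8.49 to 8.78 in Pax5KO and 5.21 to 7.39 in WT engrafted cells, and S100a8 4.59 to 6.25 and 7.27 to 8.25. The part of these markers in the receptor differences was not tested.

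Adgrg1 was the least certain of the 5, with a difference of 2.14 (SE 0.49, limma adjusted p = 0.0397). Its limma adjusted p was 0.140 without Pax5KO array 1, 0.130 without Pax5KO array 2, 0.118 without WT engrafted array 1, 0.0557 without WT engrafted array 2 and 0.114 without WT engrafted array 3, with differences of 1.77 to 2.40. It was 0.157 in a fit of the engrafted arrays alone, and 0.0760 with a term for Xist, which was high on all Pax5KO arrays but on 1 of 3 WT engrafted arrays. Fitted on all probe sets, the second Adgrg1 probe set passed (2.08, SE 0.46, limma adjusted p = 0.0427) and the one used did not (limma adjusted p = 0.0541).

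Several other receptors did not overlap between the engrafted groups and missed the threshold. The share of all genes without such overlap was not computed, so the lack of overlap only describes these receptors. Gpr137b (lower in Pax5KO cells), Gpr160 and Adgra3 (both higher, with WT engrafted cells at the floor) did not overlap either, and their 95% intervals included 0. Gpr171 was higher by 1.24 in Pax5KO cells (95% interval 0.48 to 2.01, limma adjusted p = 0.0761), Gpr174 by 2.78 (0.96 to 4.60, adjusted p = 0.0954) and Gpr180 by 0.68 (0.10 to 1.25, adjusted p = 0.214). Lower in Pax5KO cells were Gpr183 (by at least 1.82, difference -1.82, limma adjusted p = 0.0793, Pax5KO cells being at the floor), Gpr12 (-1.86, 95% interval -3.13 to -0.60, adjusted p = 0.105), Gpr107 (-1.41, -2.51 to -0.32, adjusted p = 0.164) and Adgrl2 (-1.58, -3.05 to -0.10, adjusted p = 0.282). For Gpr12 the Pax5KO arrays lay near 2.88, the value repeated on both ProB and both Ly6D+ CLP arrays, so its difference may be larger. The second Gpr174 probe set, with group means of 5.32 in Pax5KO and 2.66 in WT engrafted cells, did pass in the fit on all probe sets (2.67, SE 0.50, limma adjusted p = 0.0203). Gpr18, Gpr89, Adgrl4 and Gpr160 differed by 0.56, 0.12, 0.12 and at least 0.48 (WT engrafted cells were at the floor for Gpr160), with 95% intervals that included 0; for Adgrl4 the interval was -0.43 to 0.66.

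**Figure D3:**
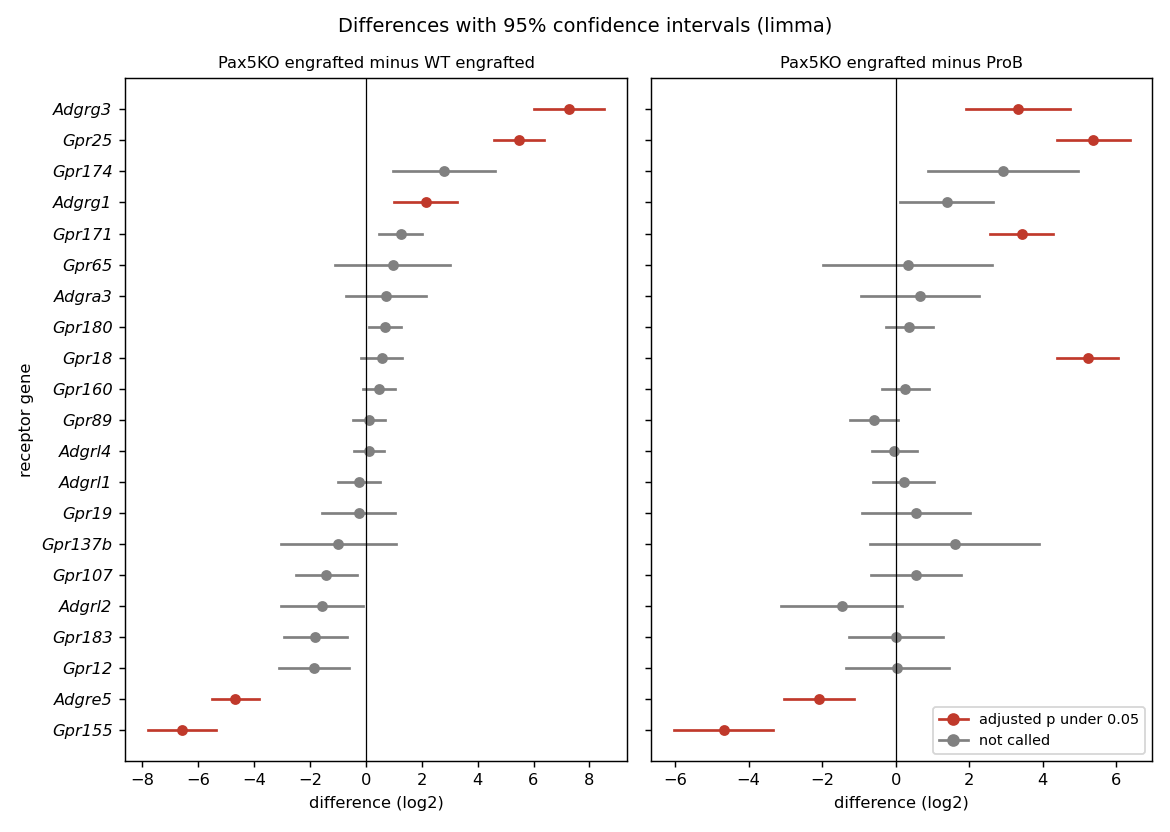
Log2 difference of each of the 21 receptor genes with its 95% confidence interval from limma, for Pax5KO minus WT engrafted cells on the left and Pax5KO minus ProB cells on the right; red marks an adjusted p under 0.05. Both panels share the Pax5KO arrays. Gpr18 and Gpr171 were called against ProB and not against WT engrafted cells, and Adgrg1 the reverse.

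Pax5KO cells were also compared with ProB cells, a normal stage at which λ5 is on. Igll1 read 12.9 and 13.5 in ProB, 12.5 and 12.3 in Ly6D+ CLP, and 8.40 and 9.02 in PreB. The same 3 Pax5KO arrays enter both comparisons, so the values stand side by side and are no independent evidence. Gpr25, Gpr18, Gpr171 and Adgrg3 rose and Gpr155 and Adgre5 fell. With Adgrb1, which was not on, 7 of the 81 were called (8.64%), against 5.24% of all genes (4.22% higher and 1.02% lower). Among genes that were on the shares were 28.6% and 9.7%, which again gives no support. Without ProB array 1, 11 receptors (13.6%) and 1883 genes (10.4%) were called; without Pax5KO array 1 or 2, 6 receptors and 565 or 625 genes. Gpr25 differed by at least 5.38 (SE 0.43, limma adjusted p = 0.000365), ProB being at the floor. Gpr18 averaged 9.87 ± 0.28 in Pax5KO (SD, n = 3) and 4.65 ± 0.54 in ProB cells (SD, n = 2), a difference of 5.22 (SE 0.36, limma adjusted p = 0.000149). Gpr171 averaged 10.63 ± 0.42 in Pax5KO and 7.21 ± 0.91 in ProB cells, a difference of 3.42 (SE 0.38, limma adjusted p = 0.00157). Gpr155 differed by -4.68 (SE 0.60, limma adjusted p = 0.0030). Genotype, fetal liver origin and transplant all differ between these groups and cannot be told apart here. WT engrafted means lay above ProB for Gpr18 (9.30), Gpr171 (9.39), Gpr155 (9.58) and Adgre5 (10.02). They lay below ProB for Adgrg3 (4.40), and for Gpr25 both groups were at the floor.

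Adgrg3 differed from ProB by 3.32 (SE 0.62, limma adjusted p = 0.0176) and Adgre5 by -2.08 (SE 0.41, limma adjusted p = 0.0236). Both calls were lost when certain single arrays were left out. The Adgrg3 difference had a limma adjusted p of 0.0630 without Pax5KO array 1 and 0.050, just above the threshold, without Pax5KO array 2, and of 0.0580 and 0.0591 without ProB array 1 or 2. The Adgre5 difference had one of 0.0510 without Pax5KO array 3, 0.0870 without ProB array 1 and 0.0529 without ProB array 2. When only the Pax5KO and ProB arrays were fitted, the limma adjusted p was 0.0843 for Gpr155, 0.123 for Gpr171 and 0.273 for Adgre5, while Adgrg3 (0.0330), Gpr25 and Gpr18 kept their calls. With array weights the limma adjusted p of Adgrg3 was 0.135. Xist was high in both groups here, and granulocyte markers averaged 3.81 to 4.24 in Pax5KO and 2.86 to 2.88 in ProB cells. Of 6 CLP markers Flt3, Il7r and Ly6d rose (by 3.89, 1.54 and 3.92). Among 7 B lineage markers only Cd79a was called (difference -2.49). Among 15 granulocyte and monocyte markers only Ctsg, a granule protease, was called, higher by at least 6.06. The part of these markers in the receptor differences was not tested.

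The step from Ly6D- to Ly6D+ CLP marks the turn of lymphoid progenitors to the B lineage. Gpr25 and Gpr18 rose and Adgrl4 and Gpr89 fell in Ly6D+ CLP. These 4 were 4.94% of the 81 receptor genes, against 1.45% of all genes called (0.813% higher and 0.638% lower); among genes that were on the shares were 19% and 2.1%. The counts were unstable: leaving out any 1 of the 4 CLP arrays gave 2 to 8 receptors (2.47% to 9.88%) and 694 to 1144 genes (3.81% to 6.29%), all above the 264 genes called with every array, so these shares do not set the receptors apart from the background. Gpr25 averaged 8.05 ± 0.46 in Ly6D+ and 3.65 ± 1.12 in Ly6D- CLP (SD, n = 2 each), so it rose by 4.40 (SE 0.47, limma adjusted p = 0.00242). Adgrl4 differed by -2.57 (SE 0.29, limma adjusted p = 0.00304), though its second probe set by -0.75 only (SE 0.32, limma adjusted p = 0.516 in the fit on all probe sets).

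Gpr18 was higher by 2.05 in Ly6D+ CLP (SE 0.40, limma adjusted p = 0.050, just under the threshold), but its adjusted p was 0.113 without Ly6D- array 2, 0.0740 without Ly6D+ array 1 and 0.0954 without Ly6D+ array 2. Gpr89 differed by -1.87 (SE 0.31, limma adjusted p = 0.0244), with an adjusted p of 0.0528 without Ly6D- array 2 and 0.0665 without Ly6D+ array 2. A limma fit of the 4 CLP arrays alone called 0 receptors (6 at an unadjusted p under 0.05) and 1 gene in all. The mean of the granulocyte and monocyte markers was 3.74 to 4.24 in Ly6D+ CLP, 4.60 on Ly6D- array 1 and 6.93 on Ly6D- array 2. On Ly6D- array 2 S100a8 read 10.59 and Ngp 8.58, against 2.39 and 2.45 on array 1. Mpo (12.38 and 12.12) and Lyz2 (9.10 and 8.76) were slightly higher on array 1. The part of these markers was not tested.

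From Ly6D+ CLP to ProB, 7 of the receptors called fell and 4 rose. All genes leaned the same way, with 976 that fell and 351 that rose, so this direction does not set the receptors apart. Gpr25, Adgrl4, Adgrg3, Gpr160, Gpr18 and Gpr171 fell, and Gpr155, Adgre5 and Gpr89 rose. With Adgrd1 and Adgrb1, which were not on, 11 of the 81 were called (13.6%), against 7.29% of all genes (1.93% higher, 5.36% lower). Among genes that were on the shares were 42.9% and 13.5%, which again gives no support. Without ProB array 1, 16 receptors (19.8%) and 2129 genes (11.7%) were called. Gpr25 was lower in ProB by at least 5.55 (difference -5.55, SE 0.47, limma adjusted p = 0.000416), ProB being at the floor, Adgrl4 differed by -4.51 (SE 0.29, adjusted p = 0.000107) and Gpr160 by -3.99 (SE 0.31, adjusted p = 0.000255). By the second Adgrl4 probe set, at the floor in ProB, the difference was at least as low as -4.99 (SE 0.32). Gpr18 differed by -3.91 (SE 0.40, limma adjusted p = 0.000903), Gpr171 by -3.79 (SE 0.41, adjusted p = 0.00112) and Adgrg3 by -4.42 (SE 0.68, adjusted p = 0.0059). Gpr155 was higher in ProB by at least 5.35 (SE 0.65, limma adjusted p = 0.0019), Ly6D+ CLP being at the floor, and Adgre5 by 2.93 (SE 0.45, adjusted p = 0.00624).

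Gpr89 was higher by 1.52 in ProB (SE 0.31, limma adjusted p = 0.0213), with an adjusted p of 0.0849 without Ly6D+ array 2, 0.0663 without ProB array 1 and 0.0676 without ProB array 2. Adgrg1 differed by -1.95 (limma adjusted p = 0.104) and Gpr180 by -1.20 (limma adjusted p = 0.0540), and neither passed. Xist was high on both ProB arrays and on no CLP or PreB array, so sex and stage cannot be told apart in the steps into and out of ProB. With a term for Xist, which only the WT engrafted arrays inform, the limma adjusted p was 0.0856 for Adgrg3, 0.0765 for Adgre5 and 0.308 for Gpr89. A limma fit of the Ly6D+ CLP and ProB arrays alone called 0 receptors (13 at an unadjusted p under 0.05) and 3 genes in all.

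From ProB to PreB, Gpr183, Gpr155, Gpr18, Gpr171 and Adgre5 rose and Adgrg3 and Gpr89 fell. With 5 receptors that were not on, 12 of the 81 were called (14.8%), against 11.5% of all genes (6.35% higher and 5.19% lower); among genes that were on the shares were 33.3% and 21.5%. Gpr183 averaged 6.15 ± 0.38 in PreB and 2.46 ± 0.18 in ProB cells (SD, n = 2 each), so it was higher by at least 3.69 (SE 0.61, limma adjusted p = 0.00593). Its second probe set averaged only 2.90 in PreB and lay at the floor in ProB. It did not pass in the fit on all probe sets (at least 0.58, SE 0.52, limma adjusted p = 0.670). Gpr155 was higher by 3.67 (SE 0.65, limma adjusted p = 0.00829), Gpr18 by 3.50 (SE 0.40, adjusted p = 0.00098) and Gpr171 by 2.74 (SE 0.41, adjusted p = 0.00379). Adgre5 was higher by 2.41 (SE 0.45, limma adjusted p = 0.0108), with an adjusted p of 0.0671 without ProB array 2 and 0.0548 without PreB array 2. Adgrg3 differed by -3.99 (SE 0.68, limma adjusted p = 0.0067) and Gpr89 by -1.82 (SE 0.31, adjusted p = 0.00706).

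Gpr12 just missed in this step (2.36, SE 0.68, limma adjusted p = 0.0594). Its probe set read the same 2.88 on both ProB and both Ly6D+ CLP arrays, so 2.36 may be a lower bound. The second Gpr12 probe set averaged 7.08 in PreB and 2.47 in ProB. It passed in the fit on all probe sets (at least 4.61, ProB being at the floor, SE 0.51, limma adjusted p = 0.00106). With a term for Xist, Gpr18 kept its call and the limma adjusted p of the other 6 was between 0.0798 (Gpr171) and 0.277 (Gpr155). A fit of the ProB and PreB arrays alone called 3 receptors and none of these 7, with a limma adjusted p of 0.0854 for Gpr18. The receptors called that were not on were Adgre4, higher by at least 1.10, Adgrb1, lower by at least 0.79 (difference -0.79), and Gpr85, Gpr61 and Gpr63, which lay at the floor in both groups. Markers of other cells moved with this step: 9 of 15 granulocyte and monocyte markers were higher in PreB, such as S100a8 by 9.20, as were 2 of 10 NK and T markers, with Gzma higher by at least 8.22, and 2 of 6 dendritic markers. Elane, Csf3r and Itgam were at the floor in PreB, as were Cd3e, Cd3g and Cd3d. The part of such cells in the receptor differences was not tested.

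**Figure D4:**
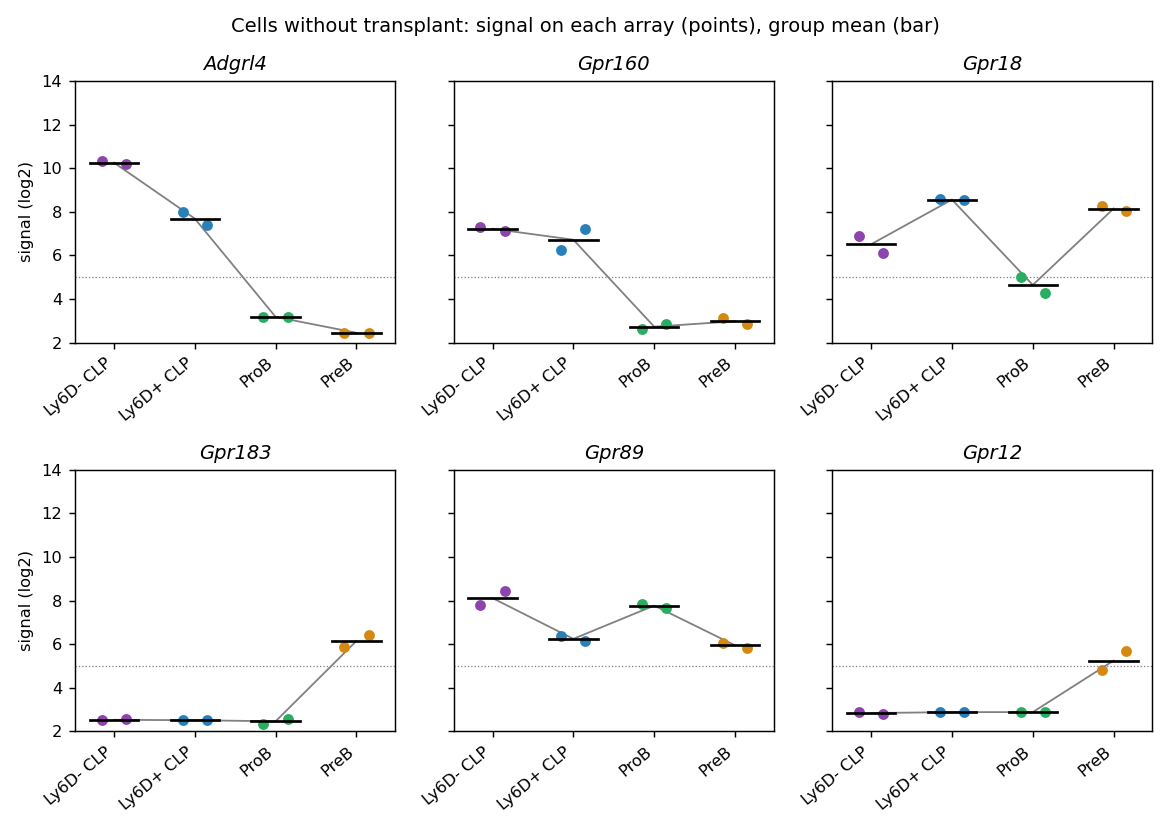
Log2 signal of 6 receptor genes in the 4 groups of cells without a transplant; points are arrays, bars group means joined by lines, and the dotted line marks 5. Adgrl4 and Gpr160 were above 6 in CLP and below 4 in ProB and PreB, Gpr18 dipped in ProB, Gpr89 alternated, and Gpr183 and Gpr12 were highest in PreB.

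Around the receptors, 7 lists with 114 measured signalling genes were read. In Pax5KO against WT engrafted cells 13 of them rose and 4 fell, 14.9% of the 114 against 5.94% of all genes. The median difference was 0 in both. Because the lists were chosen with earlier results of these data known, their shares, here and below, describe them and test nothing. Among receptors that once had a Gpr number and have been renamed for a ligand or family, 2 of 23 rose and 1 fell. Ffar2 (once Gpr43, a receptor of short chain fatty acids) read 9.79, 9.91 and 10.60 in Pax5KO cells, against 2.59, 2.59 and 2.63 in WT engrafted cells, a difference of at least 7.50 (SE 0.62, limma adjusted p = 0.00019). P2ry13, an ADP receptor that lies near Gpr171 on chromosome 3, was higher by 2.92 (SE 0.47, limma adjusted p = 0.00757; 0.0667 with a term for Xist). Lgr5, a receptor of R-spondins (once Gpr49), read 2.32 on all Pax5KO arrays, against 7.58, 8.39 and 8.42 in WT engrafted cells, and so was lower by at least 5.81 (difference -5.81, SE 0.37, limma adjusted p = 4.69e-05).

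Of the G proteins, 1 of 15 alpha subunits rose in Pax5KO cells: Gna12, of the G12/13 class, which averaged 7.58 in Pax5KO and 4.61 in WT engrafted cells (2.97, SE 0.52, limma adjusted p = 0.0115). Its adjusted p was 0.0517 without Pax5KO array 1. Of 16 beta and gamma subunits 1 rose and 1 fell, and 1 of them was called with the replicate block. Of 11 effectors of G12/13 and Gq, Trio, a guanine nucleotide exchange factor, rose by 2.88 (SE 0.41, limma adjusted p = 0.0039). Of 19 RGS proteins, which shut G alpha subunits off, 2 rose and 1 fell, and 2 of the 3 were called with the replicate block. Rgs8 averaged 7.47 in Pax5KO and 2.75 in WT engrafted cells, which is the floor (at least 4.72, SE 0.30, limma adjusted p = 4.69e-05).

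Of 7 receptor kinases and arrestins, Arrb1 (2.98, SE 0.28, limma adjusted p = 0.0004) and Arrb2 (1.87, SE 0.38, limma adjusted p = 0.0229) rose in Pax5KO cells. Arrb2 had an adjusted p of 0.0838 with the replicate block and of 0.0667 to 0.0943 without Pax5KO array 1 or 3 or WT engrafted array 1 or 2. Of 23 genes of the cyclic AMP pathway 4 rose and 1 fell, 3 of the 5 being called with the replicate block. Adcy6, an adenylyl cyclase, averaged 7.08 in Pax5KO and 2.63 in WT engrafted cells (4.45, SE 0.37, limma adjusted p = 0.000205). Pde8a, a phosphodiesterase of cyclic AMP, was higher by 3.50 (SE 0.56, limma adjusted p = 0.00725; 0.0550 with a term for Xist).

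Between Ly6D+ and Ly6D- CLP, limma called 0 of the 114 genes, with 18 at an unadjusted p under 0.05. In ProB against Ly6D+ CLP 1 rose and 22 fell (20.2%, against 7.29% of all genes, with 1.93% higher and 5.36% lower). Among those that fell, Gnaz, Gng7 and Rgs9 were low in Ly6D+ CLP (means of 2.86, 3.12 and 3.03) and at the floor in ProB. The RGS proteins fell in 5 of 19 cases, led by Rgs8 (-4.73, SE 0.37, limma adjusted p = 0.000265), Rgs10 (-4.67, SE 0.45, adjusted p = 0.000741) and Rgs1 (-3.75, SE 0.43, adjusted p = 0.0014). P2ry14, a receptor of UDP sugars and the neighbour of Gpr171 inside the span of Med12l, fell (difference -3.71, SE 0.53, limma adjusted p = 0.00423; 0.0730 with a term for Xist). Lgr5 was the 1 gene that rose, by at least 4.31 (SE 0.46, limma adjusted p = 0.001). In PreB against ProB limma called 13 as higher and 0 as lower (21 and 1 at an unadjusted p under 0.05), 11.4% of the list genes against 11.5% of all genes. Rgs16 rose by 5.57 (SE 0.42, limma adjusted p = 0.000116), Rgs1 by 5.57 (SE 0.43, adjusted p = 0.000123) and Rgs2 by 4.91 (SE 0.42, adjusted p = 0.000218), in the step where granulocyte and NK markers also rose. In Pax5KO against ProB cells 17 rose and 1 fell, Lgr5 (15.8%, against 5.24% of all genes).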

How the data were processed

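RNA of 14 samples was read on an Affymetrix 3' array. The authors deposited log2 signals for 45101 probe sets, 1 value for each array. RMA, GCRMA and limma are named, with no role or version, per the submitters' processing notes. Values ran from 2.32 to 16.1, and 31.3% to 36.8% of each array lay at the lowest value; array medians (2.41 to 2.52) and upper quartiles (5.39 to 5.98) were close, so nothing was rescaled. A group whose arrays all lay within 0.5 of the lowest value was taken as at the floor, and a difference from it is a lower bound. The number of arrays limits the precision.

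Gene names came from the platform annotation: 34945 probe sets had 1 symbol, 34741 of which matched RefSeq (GRCm38.p6), and 932 had several and were left out. The probe set with the highest mean stood for each of 18193 genes. Differences were tested with limma 3.58.1 in R 4.3.3 (6 group means, 14 arrays, 8 residual degrees of freedom, two-sided, Benjamini-Hochberg over all genes, called under 0.05); the fit was tested on simulated data. The labels do not say whether replicates came from separate mice.

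Receptors that were on could be named, with values per array for those called, and at most the 4 largest called genes of a list and comparison. The members and lists were chosen with earlier results of these data known. Deviations of same-numbered Pax5KO and WT engrafted arrays had correlations of 0.155, 0.331 and 0.565 over genes that were on. Pax5KO array 1 correlated more with WT engrafted array 2 (0.410), and Pax5KO array 2 gave 0.216 with WT engrafted array 1. Array 3 of each group correlated negatively with arrays 1 and 2 of the other. These values do not settle whether the numbers pair arrays, and the replicate block served as an alternative only. PreB arrays are numbered 2 and 3 in titles, and 1 and 2 in descriptions, which the block used. Alternatives changed the probe set rule, filters, weights, scaling, samples fitted, Xist and single arrays.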

Additional observations from a re-analysis of the deposited data

How the results depend on the processing

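Counts of receptor genes called are given for all 81 measured. Between Pax5KO and WT engrafted cells 5 were called; 9 were called among genes with a group mean above 5 or above 4, and 13 with array weights, which called 3065 genes, against 697 when only these groups were fitted. Against ProB, 7 were called, and 3 with those groups alone, where 191 genes were called; the replicate block called 419. From Ly6D- to Ly6D+ CLP, 4 were called, 1 with array weights (102 genes) and 0 with those groups alone (1 gene; 6 receptors at an unadjusted p under 0.05 in limma); the block called 169 genes. From Ly6D+ CLP to ProB, 11 were called and 0 with those groups alone (3 genes; 13 receptors at an unadjusted p under 0.05); weights called 368 genes and a term for Xist 693. From ProB to PreB, 12 were called, 3 with those groups alone (487 genes) and 5 with a term for Xist (746 genes). Smaller fits leave fewer degrees of freedom; the cause of the other changes was not tested. Leaving out 1 array at a time gave 4 to 7, 5 to 11, 2 to 8, 9 to 16 and 10 to 18 receptors in these 5 comparisons, and 676 to 1034, 565 to 1883, 694 to 1144, 1060 to 2129 and 1491 to 2695 genes; a lone array was assumed to vary like the other groups. Of 450 values of receptors called in the 31 pairs of gene and comparison, 379 kept direction and call, 71 lost the call, and 0 turned direction. The replicate block changed no receptor call between the engrafted groups. In the other comparisons same-numbered arrays did not deviate together (correlations of 0.0035, -0.0408 and 0.0962 for the 3 steps, and 0.180 and -0.155 against ProB). There it gave Adgrg3 an adjusted p of 0.119 and Adgre5 one of 0.115 against ProB, and Gpr18 one of 0.0911 between CLP groups, all by limma. With array weights the limma adjusted p of Adgrl4 between CLP groups was 0.130. Of the 81 receptors 21 were on; 24 were with a threshold of 4, 18 with 6, and 14 with the mean of all probe sets.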
